A study of Zea mays with 6 samples.

Results

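The genes of the Calvin cycle and of Rubisco assembly were followed in maize (Zea mays) leaves under 2 water regimes. They were chosen by words in gene names and descriptions: Rubisco, its activase and assembly proteins, phosphoribulokinase, the bisphosphatases, aldolase, phosphoglycerate kinase, glyceraldehyde-3-phosphate dehydrogenase, triosephosphate isomerase, the triose phosphate translocators, transketolase, the pentose phosphate isomerase and epimerase, and CP12. Of 45953 annotated genes, 83 outside the plastid genome matched, by a rule that uses no measured value. Of these 83, 78 are named for a component of the cycle, of Rubisco or of triose phosphate export. The other 5 matched by a shared word: a methylthioribulose-1-phosphate dehydratase, 2 genes of a phosphoribulokinase and uridine kinase family, a lysine methyltransferase that acts on aldolase, and a gene of a glyceraldehyde-3-phosphate dehydrogenase-like family. Glycolysis in the cytosol uses enzymes of the same names, so cytosolic isoforms are among the 78.

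RNA sequencing of leaves gave 6 libraries. LW, the drought group of 3 libraries, was watered without interruption by negative pressure, that is, from a reservoir under suction from which the soil takes up water as it dries. CW, the group of 3 libraries from moist soil, was watered by drip irrigation. Soil water and irrigation method thus differed together and cannot be told apart, and no cultivar, plant age or leaf position is given in the sources used here. Nothing in the labels says that replicates were separate plants, so the p-values cover the spread among these 6 samples, part of which could be technical.

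In the Calvin cycle, Rubisco joins CO2 to ribulose-1,5-bisphosphate, the product is reduced to triose phosphate, and the sugar phosphates are rearranged until phosphoribulokinase remakes the acceptor. Rubisco needs chaperones to fold and assemble, and activase to remove inhibitory sugar phosphates from its active site. In maize, a C4 plant, mesophyll cells first fix CO2 into C4 acids and Rubisco works in the chloroplasts of the bundle sheath, while part of the reduction of 3-phosphoglycerate takes place in the mesophyll.

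Estimated counts per library summed to between 62327457 and 84084375 in LW and between 42927751 and 64067543 in CW. Levels below are FPKM (fragments scaled by transcript length and library total) as deposited. Fold changes are log2 values of LW over CW, fitted by edgeR's quasi-likelihood test with TMM (trimmed mean of M values) library factors, and a gene was called at a Benjamini-Hochberg adjusted p under 0.05 over 24704 tested genes. TMM factors ran from 1.05 to 1.21 in LW and from 0.854 to 0.910 in CW. Scaling by totals alone, as FPKM does, moved the median of all genes up by 0.36 in log2, so fitted falls are larger, and fitted rises smaller, than the ratios of FPKM. CW replicate 3 differed from the other 2 CW libraries over these genes: its FPKM was a median 0.677 of their mean over the measured members with a mean FPKM of at least 1, against 1.04 over all tested genes filtered alike.

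Transcripts of the Rubisco small subunit, of its activase, of phosphoribulokinase and of other abundant genes of the cycle fell in LW leaves. Of the 65 members with enough counts to be tested, 14 fell and 1 rose in LW, and 50 were not called. The 14 that fell are 21.5% of those tested, beside 2.40% of all tested genes, and the 1 that rose is 1.54%, beside 2.84% of all tested genes. The smallest of the 14 falls was 3.53-fold and the largest 14.1-fold (median 5.24-fold). DESeq2 called 26 lower and 6 higher of 69 members, beside 1964 lower and 2425 higher of 28830 genes. With libraries scaled by totals alone, 14 members were called lower and 4 higher, beside 346 lower and 1425 higher of all genes. The median fitted log2 fold change was -0.71 over the 65 members and 0.06 over all tested genes. In TMM-scaled CPM (counts relative to the TMM-adjusted library total), every LW library lay below every CW library for 31 members, 47.7% of those tested against 14.9% of all genes. The reverse held for 7 members, 10.8% against 19.7% of all genes, and the groups overlapped for 27. All 15 called members were without overlap, in FPKM too, as genes picked by a test on the same libraries tend to be. In bulk leaf RNA, fewer cells of a type and less RNA per cell cannot be told apart.

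The calls depended on which libraries were kept. With LW replicate 1, LW replicate 2, LW replicate 3 or CW replicate 2 omitted, 0 members were called lower with edgeR. With CW replicate 1 omitted 3 were, and with CW replicate 3 omitted 24. The same omissions changed the whole table: 0 of all genes were called lower when any 1 LW library or CW replicate 2 was omitted, 87 when CW replicate 1 was omitted and 1193 when CW replicate 3 was, against 592 with all 6 libraries. At an unadjusted p under 0.05, 26 to 35 members were lower in these fits, against 32 with all libraries. With all libraries, 2816 of the 24704 tested genes were lower at that cut. In these fits, 4367 to 8069 of all tested genes passed it in either direction. The 14 members called lower had a negative fold change and an unadjusted p under 0.05 in each of these fits, and all 15 called members were also called without CW replicate 3. These members were picked with the same libraries that the fits share, so this partly repeats the selection and is no separate support.

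Of the 14 falls, 12 were in abundant genes. Among 25 members with a mean FPKM of at least 100, 12 fell, 0 rose with edgeR, DESeq2 or at an unadjusted p under 0.05, 24 had a negative fold change, and the median was -1.97. Among all 916 tested genes at that level, 161 fell, 38 rose, and the median was -0.38. Among the 40 tested members under 100 FPKM, 2 fell, 1 rose, and the median was -0.21. Together the 83 members held 2.25%, 1.64% and 1.99% of all FPKM in LW replicates 1 to 3, against 6.96%, 7.57% and 4.07% in CW replicates 1 to 3. The share was lower in all 3 LW libraries, and the CW library with the smallest share was replicate 3. The means were 1.96% ± 0.306 in LW and 6.20% ± 1.87 in CW (SD, n = 3 each).

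**Figure D1:**
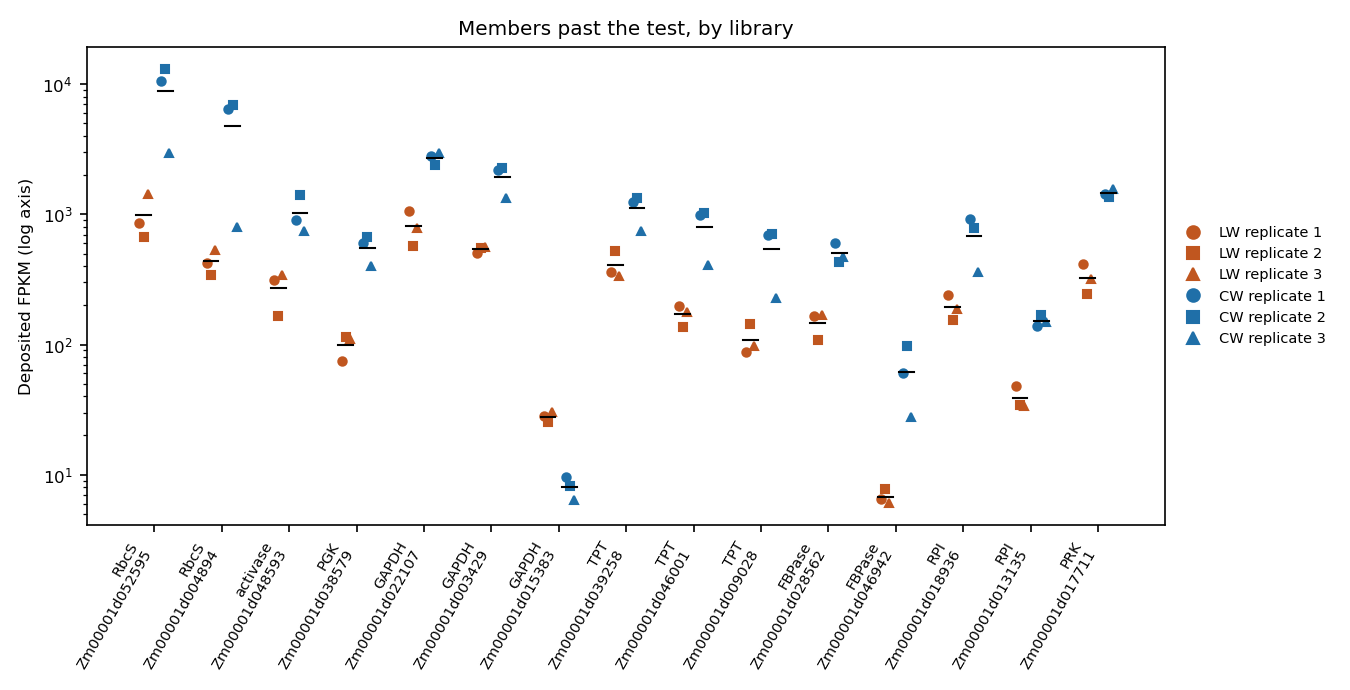
Deposited FPKM on a log axis of the 15 called members in each LW (orange) and CW (blue) library, with short bars at the group means. The 14 members that fell lie lower in every LW library than in any CW library, cytosolic GAPDH Zm00001d015383 lies higher, and the triangle of CW replicate 3 is the lowest CW point for 10 of the 14.

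The remaining 18 members had too few counts for a test. Of these, 13 were at 0 in every library, and the highest FPKM of the other 5 was 2.11, in LW replicate 2, for the translocator gene Zm00001d010044, which DESeq2, with its lower count minimum, called higher in LW (adjusted p = 0.0058). The 13 include 4 genes described as chloroplastic GAPA1 on chromosome 10 and 3 described as chloroplastic aldolase 3. Members that the rule for named genes did not pick (Zm00001d010044, Zm00001d006402, Zm00001d045698, Zm00001d006833, Zm00001d035156, Zm00001d028880, Zm00001d053015, Zm00001d008491, Zm00001d042727, Zm00001d002454, Zm00001d051001, Zm00001d017121, Zm00001d053798, Zm00001d052482, Zm00001d030701, Zm00001d020437 and Zm00001d017791) were chosen after their values were seen.

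Both nuclear genes of the Rubisco small subunit fell in LW, by more than 10-fold each in the edgeR fit. Zm00001d052595, named small subunit1, lies on chromosome 4 at 194257728 to 194258862 on the minus strand; the build of these positions is not stated in the sources used here. It stood at 862, 672 and 1430.0 FPKM in LW replicates 1 to 3, against 10687, 13167 and 2962 FPKM in CW replicates 1 to 3. All LW values were below all CW values, and CW replicate 3 was closer to LW replicate 3 than to the other CW libraries. The fitted log2 fold change was -3.54 with a standard error (SE) of 0.69, an 11.6-fold fall (adjusted p = 0.0389). Zm00001d004894, small subunit2, on chromosome 2 at 147269761 to 147270804 on the plus strand, stood at 426, 343 and 537 FPKM in LW, against 6501, 6982 and 799 FPKM in CW. The groups again did not overlap, with CW replicate 3 at 0.119 of the mean of the other 2 CW libraries. Its log2 fold change was -3.82 (SE 0.83, adjusted p = 0.0467), a 14.1-fold fall.

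The 2 small subunit genes encode nearly the same protein, and reads may have been divided between them, so their sum is given as well. It was 1423 ± 490.5 FPKM in LW and 13700 ± 8733 FPKM in CW (SD, n = 3 each), and the difference between the group means of log2 summed FPKM was -2.995. Without CW replicate 3 the difference was -3.76. An exact two-sided permutation test gave p = 0.1, the smallest that 3 against 3 libraries allow. Small subunit1 held 68.6% ± 3.56 of the sum in LW and 68.8% ± 8.80 in CW, so its share differed by less than the spread. After quantile normalization neither gene passed with limma (adjusted p = 0.0776 and 0.0890), and the change of small subunit2 was -2.47. With limma on log2(FPKM + 0.1), small subunit2 was at -2.95 and did not pass either (adjusted p = 0.0750).

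The large subunit is encoded in the plastid genome by rbcL, which is not among the 83 members. It stood at 104, 4.97 and 9.98 FPKM in LW, against 411, 670 and 92.8 FPKM in CW. LW replicate 1 was above CW replicate 3, so the groups overlapped, and the log2 fold change of -3.59 (SE 1.32) did not pass with edgeR (adjusted p = 0.149) but was called with DESeq2. The labels' protocol describes poly(A) selection but also mentions RNA without poly(A) and adipose material, so how plastid transcripts, which mostly lack poly(A) tails, entered the libraries is not settled. Both nuclear genes described as Rubisco large chain were also not called with edgeR, and DESeq2 called Zm00001d045698 lower (adjusted p = 0.0110). Zm00001d006402 averaged 25.3 FPKM in LW and 23.9 FPKM in CW, and Zm00001d045698 averaged 5.73 FPKM in LW and 30.9 FPKM in CW (adjusted p = 0.801 and 0.112). Reads of rbcL could be assigned to such copies, so their values are uncertain, and Zm00001d006402 also overlaps another gene.

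Rubisco activase is the ATP-dependent enzyme that frees blocked Rubisco sites. Zm00001d048593, named activase2, stood at 312, 166 and 341 FPKM in LW, against 900.0, 1404 and 749 FPKM in CW. All LW libraries were below all CW libraries. It fell by 2.24 on the log2 scale (SE 0.46, adjusted p = 0.0424), a 4.73-fold fall. Its neighbour Zm00001d048592, named activase3 and described as activase1, starts on chromosome 4 at 919276, just before activase2 at 921608. It was much weaker, at 5.81, 7.61 and 12.7 FPKM in LW, against 14.3, 18.8 and 38.1 FPKM in CW. Its groups did not overlap either, but its change of -1.79 (SE 0.45) missed the threshold with edgeR (adjusted p = 0.0641) and passed with DESeq2 (adjusted p = 0.0036). Activase2 held 96.7% ± 1.31 of the activase FPKM in LW and 97.4% ± 1.96 in CW, and a division of reads between the tandem genes cannot be checked here.

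Of the 3 assembly members, 0 were called with edgeR, and at an unadjusted p under 0.05 1 was higher and 1 lower in LW. The alpha subunit of the large-subunit-binding protein, a plastid chaperonin that folds new large subunits, had its gene Zm00001d034919 at 80.0, 106 and 93.2 FPKM in LW, against 30.1, 36.2 and 45.1 FPKM in CW. All LW values were above all CW values. Its fitted log2 fold change of 0.97 (SE 0.24) did not pass with edgeR's test (adjusted p = 0.0632), but did with DESeq2 (adjusted p = 0.0033) and without CW replicate 3 (adjusted p = 0.0446). Rubisco Assembly Factor 1 (Zm00001d001812), which acts on the folded large subunit, had 21.0, 17.4 and 41.0 FPKM in LW, against 44.8, 64.2 and 15.97 FPKM in CW, with LW replicate 3 high and CW replicate 3 low, so the groups overlapped. Its change was -1.02 (SE 0.56, adjusted p = 0.315), and that of accumulation factor2 (Zm00001d034715) was -1.04 (SE 0.40, adjusted p = 0.162).

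Of the 5 genes described as Rubisco methyltransferase family, which is named for an enzyme that methylates the large subunit in some plants, 4 were tested and 0 called with edgeR. DESeq2 called Zm00001d051669 lower, and 3 of the 4 had an unadjusted p under 0.05, each lower in LW. Zm00001d011448, Zm00001d044101 and Zm00001d051669 had log2 fold changes of -1.003, -0.94 and -0.95 (adjusted p = 0.119, 0.132 and 0.0962). Zm00001d051668 covers nearly the same stretch of chromosome 4 as Zm00001d051669, on the same strand, and had a change of 0.93 (SE 0.80, adjusted p = 0.523), or 0.08 without LW replicate 2. Reads of that locus could be assigned to either gene. Zm00001d011448 also overlaps 2 other genes.

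Phosphoglycerate kinase and glyceraldehyde-3-phosphate dehydrogenase (GAPDH) reduce the product of Rubisco in 2 steps. Phosphoglycerate kinase Zm00001d038579 stood at 74.5, 114 and 111 FPKM in LW, against 601, 665 and 400.3 FPKM in CW. Every LW library was below every CW library, and the gene fell by 2.84 on the log2 scale (SE 0.34, adjusted p = 0.0207), a 7.18-fold fall. A second gene of this enzyme, Zm00001d015376, stood at 202, 171 and 230.3 FPKM in LW, against 138, 163 and 123.25 FPKM in CW. All its LW values in FPKM were above all its CW values, the groups overlapped in TMM-scaled CPM, and the change of 0.16 (SE 0.28) did not pass (adjusted p = 0.770). The table's GO (Gene Ontology) terms place Zm00001d038579 in the cytosol only and Zm00001d015376 in both compartments.

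The balance between these 2 kinases differed between the groups in every library. The ratio of Zm00001d038579 to Zm00001d015376 within a library was 0.369, 0.666 and 0.483 in LW replicates 1 to 3, against 4.36, 4.07 and 3.25 in CW replicates 1 to 3. Zm00001d038579 held 32.5% ± 6.42 of all phosphoglycerate kinase FPKM in LW and 78.6% ± 2.64 in CW (SD, n = 3 each). The 4 genes of the enzyme summed to 307 ± 35.9 FPKM in LW and 703 ± 157 FPKM in CW, so the sum differed by less than Zm00001d038579 alone. The 2 weak genes of the enzyme, at or under 4.12 FPKM, were not called. The ratios and shares within a library do not depend on how libraries are scaled, and they were chosen after the values were seen, so they carry no test.

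**Figure D2:**
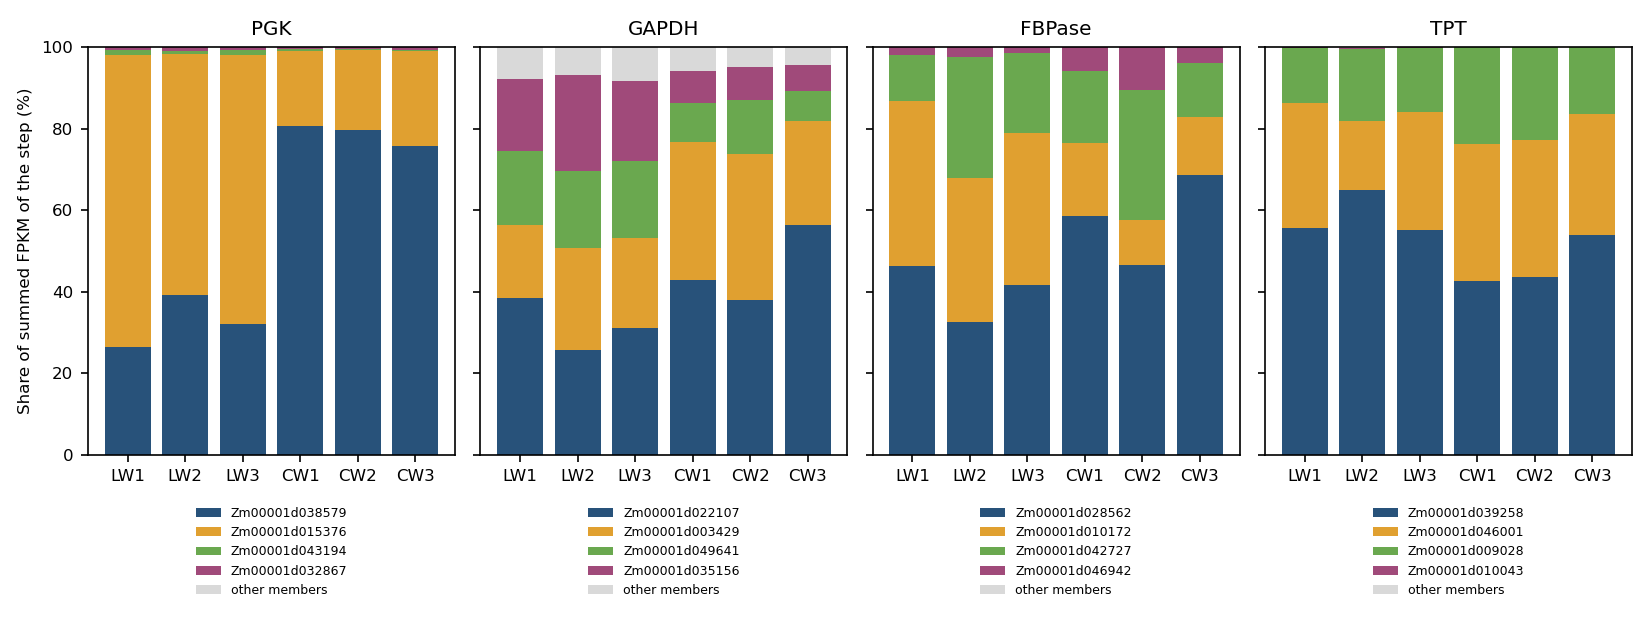
Share in percent of the summed FPKM of an enzyme held by each of its genes, one stacked bar per library, for phosphoglycerate kinase (PGK), GAPDH, fructose-bisphosphatase (FBPase) and the triose phosphate translocator (TPT). Zm00001d038579 holds 26.4% to 39.2% of PGK in LW and 75.6% to 80.6% in CW, while TPT Zm00001d039258 holds the largest TPT share in all 6 libraries.

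GAPDH has 17 members, of which 9 were tested, 2 fell and 1 rose. The 2 that fell encode the photosynthetic A subunit. Zm00001d022107 stood at 1070.3, 567 and 788 FPKM in LW, against 2800, 2409 and 2938 FPKM in CW, and fell by 2.07 (SE 0.39, adjusted p = 0.0351). Zm00001d003429 stood at 505, 553 and 560 FPKM in LW, against 2209, 2266 and 1332 FPKM in CW, and fell by 2.20 (SE 0.36, adjusted p = 0.0299). Neither gene's groups overlapped; only for Zm00001d003429 was CW replicate 3 low. After quantile normalization Zm00001d022107 did not pass with limma (adjusted p = 0.115). Another A gene, Zm00001d006833, averaged 151 ± 36.6 FPKM in LW and 298 ± 74.1 FPKM in CW and was not called with edgeR (log2 fold change -1.31, adjusted p = 0.0731), while DESeq2 called it lower (adjusted p = 0.0055).

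The cytosolic GAPDH genes, which serve glycolysis, were not among those that fell. Zm00001d015383 was the 1 member that rose: it stood at 28.2, 25.3 and 30.1 FPKM in LW, against 9.54, 8.24 and 6.41 FPKM in CW. The groups lay far apart relative to their spread, with a log2 fold change of 1.44 (SE 0.26, adjusted p = 0.0326). The 2 most abundant cytosolic genes were not called. Zm00001d049641 averaged 466 ± 40.4 FPKM in LW and 614 ± 223 FPKM in CW (adjusted p = 0.275), and Zm00001d035156 averaged 504 ± 12.6 FPKM in LW and 454 ± 105 FPKM in CW (adjusted p = 0.739). Summed cytosolic GAPDH was 1006 ± 29.4 FPKM in LW and 1079 ± 321 FPKM in CW (exact two-sided permutation p = 0.9), while summed A type GAPDH was 1499 ± 262 FPKM in LW and 4949 ± 444 FPKM in CW (p = 0.1). The 3 weaker tested genes, Zm00001d051001, Zm00001d017121 and the plastid GAPCP1 gene Zm00001d053798, none above 10.5 FPKM, had log2 fold changes of 1.27, 2.05 and 0.97 and were not called with edgeR (adjusted p = 0.109, 0.185 and 0.512), while DESeq2 called Zm00001d051001 higher (adjusted p = 0.0371). The ratio of A type to cytosolic GAPDH was 1.69, 1.26 and 1.502 in LW replicates 1 to 3, against 4.67, 3.67 and 6.17 in CW replicates 1 to 3.

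CP12 is a small chloroplast protein that binds GAPDH and phosphoribulokinase into an inactive complex in the dark. CP12-1 (Zm00001d044925) stood at 2644, 1308 and 1738 FPKM in LW, against 3608, 4007 and 3935 FPKM in CW. No LW library reached a CW library, yet the change of -1.34 (SE 0.39) did not pass (adjusted p = 0.0852), and after quantile normalization it was -0.04. DESeq2 called it (adjusted p = 0.0051). CP12-2 (Zm00001d028880) averaged 98.1 ± 13.1 FPKM in LW and 114 ± 23.7 FPKM in CW and was not called (adjusted p = 0.181). CP12-1 transcript was more abundant relative to that of phosphoribulokinase Zm00001d017711 in LW, with ratios of 6.32, 5.36 and 5.48 in LW, against 2.54, 2.94 and 2.50 in CW. These ratios too were chosen after the values were seen.

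The triose phosphate translocators, which exchange triose phosphate for phosphate across the inner chloroplast envelope, fell in all 3 of their abundant genes. Zm00001d039258 stood at 359, 526 and 338 FPKM in LW, against 1246, 1339 and 752 FPKM in CW. No LW library reached a CW library, and the gene fell by 1.82 on the log2 scale (SE 0.37, adjusted p = 0.0424). It overlaps the gene Zm00001d039259, and it did not pass with totals alone (adjusted p = 0.0547), with limma on log2(FPKM + 0.1) (adjusted p = 0.0514) or after quantile normalization (adjusted p = 0.118). Zm00001d046001 averaged 170.3 ± 31.5 FPKM in LW and 805 ± 343 FPKM in CW and fell by 2.59 (SE 0.45, adjusted p = 0.0317). Zm00001d009028 averaged 109 ± 29.9 FPKM in LW and 541 ± 271 FPKM in CW and fell by 2.69 (SE 0.50, adjusted p = 0.0350). CW replicate 3 was the lowest CW library for all 3, and the sum over 5 genes was 689 ± 105 FPKM in LW and 2460 ± 927 FPKM in CW (exact two-sided permutation p = 0.1).

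Triosephosphate isomerase, which interconverts the triose phosphates in chloroplast and cytosol, had nearly the same summed FPKM in both groups. Of its 9 tested genes, 0 were called with edgeR or DESeq2, and 1 had an unadjusted p under 0.05, lower in LW. Its 11 genes summed to 423 ± 30.7 FPKM in LW and 427 ± 70.0 FPKM in CW (exact two-sided permutation p = 1). With FPKM divided by relative TMM factors, the difference between means of log2 sums was -0.36. The most abundant gene, Zm00001d039865, named isomerase4, stood at 242, 171 and 205 FPKM in LW, against 247, 201 and 145 FPKM in CW, and the groups overlapped. Its log2 fold change of -0.28 (SE 0.33, adjusted p = 0.650) turned positive under 4 of the alternatives, so it has no firm direction. Most of these genes carry a cytosolic description or GO term. Isomerase1 (Zm00001d021885), the most abundant of those with neither, averaged 2.59 FPKM in LW and 2.77 FPKM in CW (adjusted p = 0.728).

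**Figure D3:**
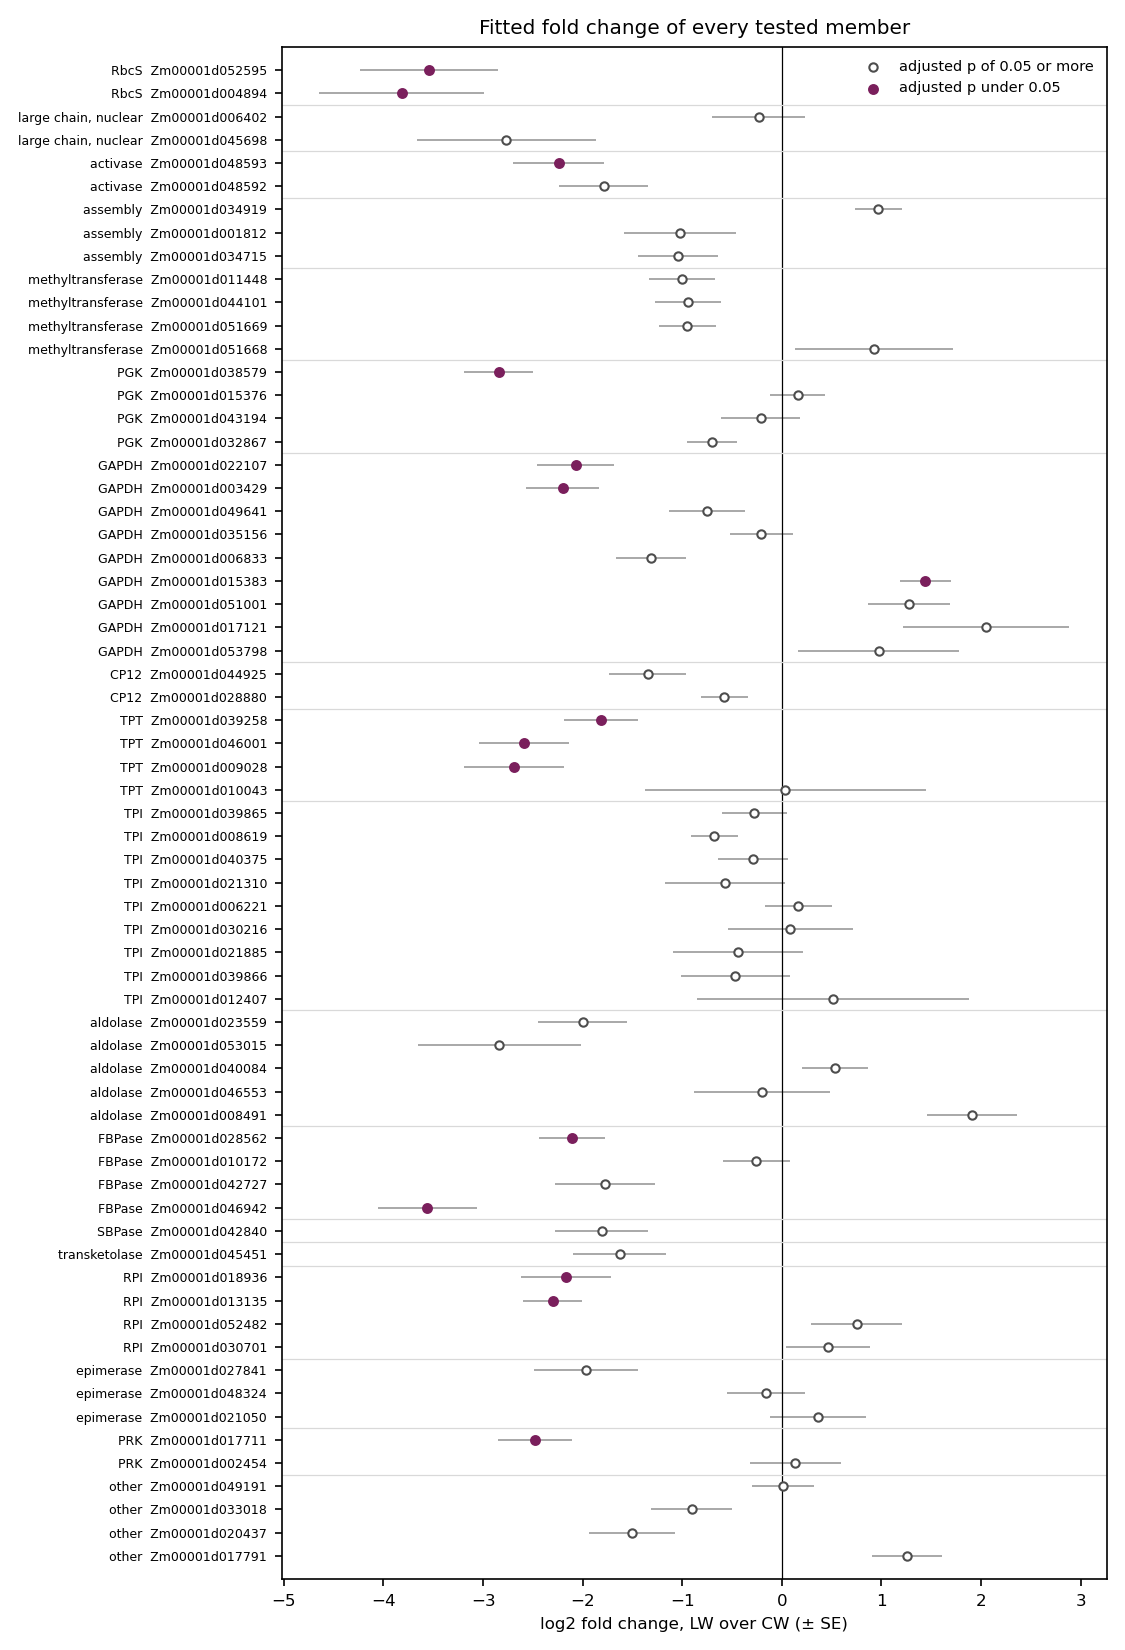
Fitted log2 fold change of LW over CW with its SE for each of the 65 tested members, grouped by enzyme from Rubisco to phosphoribulokinase; filled points have an adjusted p under 0.05. The filled points on the left of 0 are the 14 falls, from -1.82 to -3.82, and the 1 on the right is cytosolic GAPDH at 1.44.

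Aldolase joins triose phosphates into fructose bisphosphate and also makes sedoheptulose bisphosphate. Its leading gene Zm00001d023559, with a mean of 95.6% of all aldolase FPKM in LW and 96.7% in CW, was among the most abundant members. It stood at 2391, 1268 and 1375 FPKM in LW, against 5206, 5412 and 5474 FPKM in CW. The CW libraries lay close together and all LW libraries were below them. Its change of -2.00 (SE 0.45) was just over the threshold (adjusted p = 0.0507), and it passed with totals alone (adjusted p = 0.0483), with DESeq2, with limma on log2(FPKM + 1) (adjusted p = 0.0153) and log2(FPKM + 0.1) (adjusted p = 0.0294), and without CW replicate 3 (adjusted p = 0.0484). It did not pass with no filter on low counts (adjusted p = 0.0579) or without any other library (adjusted p = 0.0824 to 0.210), and after quantile normalization the change was -0.78 (adjusted p = 0.0689). The other 4 tested aldolase genes were not called with edgeR. Zm00001d053015 had a change of -2.84 (SE 0.82, adjusted p = 0.0851) and Zm00001d008491 a change of 1.91 (SE 0.45, adjusted p = 0.0575), and DESeq2 called the first lower (adjusted p = 0.0017) and the second higher (adjusted p = 0.0018).

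Fructose-bisphosphatase removes a phosphate from fructose-1,6-bisphosphate, in the chloroplast for the cycle and in the cytosol for sucrose synthesis. Of its 4 genes, 2 fell. Zm00001d028562, with GO terms for both compartments, stood at 164, 108 and 168 FPKM in LW, against 605, 431 and 470.0 FPKM in CW. The groups did not overlap, CW replicate 3 was not the lowest CW library, and the gene fell by 2.11 (SE 0.33, adjusted p = 0.0277). Zm00001d046942 was weaker, at 6.55, 7.75 and 6.05 FPKM in LW, against 60.3, 97.8 and 27.5 FPKM in CW. It fell 11.8-fold, or by 3.56 on the log2 scale (SE 0.50, adjusted p = 0.0228), and held 1.90% ± 0.419 of the enzyme's FPKM in LW and 6.80% ± 3.38 in CW.

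The 2 genes described as cytosolic fructose-bisphosphatase were not called with edgeR. Zm00001d010172 stood at 143, 116 and 149 FPKM in LW, against 187, 101 and 97.4 FPKM in CW, with overlap and a change of -0.26 (adjusted p = 0.687) that turned positive under the same 4 alternatives and without CW replicate 1. It held 37.5% ± 2.59 of the enzyme's FPKM in LW and 14.4% ± 3.56 in CW. Zm00001d042727 averaged 72.9 ± 29.6 FPKM in LW and 190.0 ± 103 FPKM in CW (log2 fold change -1.78, adjusted p = 0.0834), and DESeq2 called it lower (adjusted p = 0.0067).

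Sedoheptulose-bisphosphatase, which commits carbon to remaking the CO2 acceptor, has 1 member, Zm00001d042840. It stood at 358, 148 and 356 FPKM in LW, against 924, 916 and 562 FPKM in CW. The groups did not overlap, but the change of -1.81 (SE 0.47) did not pass with edgeR (adjusted p = 0.0697). It passed with DESeq2 (adjusted p = 0.0018) and without CW replicate 3 (adjusted p = 0.0478). Transketolase 1 (Zm00001d045451), which moves 2-carbon units between sugar phosphates, stood at 137, 142 and 194 FPKM in LW, against 396, 555 and 182 FPKM in CW. CW replicate 3 lay within the LW range in FPKM, and the change of -1.63 (SE 0.47) did not pass with edgeR (adjusted p = 0.0855). It passed with DESeq2 (adjusted p = 0.0056) and without CW replicate 3 (adjusted p = 0.0268). The other 2 transketolase genes were at or under 0.36 FPKM in every library.

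Ribose-5-phosphate isomerase and ribulose-phosphate epimerase deliver ribulose-5-phosphate. Of the isomerase's 4 genes, the 2 abundant ones fell. Zm00001d018936, described as probably chloroplastic, stood at 241, 154 and 187 FPKM in LW, against 918, 784 and 360 FPKM in CW. It fell by 2.17 (SE 0.45, adjusted p = 0.0440) with no overlap, though not with limma on log2(FPKM + 0.1) (adjusted p = 0.0533). Zm00001d013135 stood at 48.3, 34.6 and 33.6 FPKM in LW, against 138, 168 and 148 FPKM in CW. Its groups were well apart with CW replicate 3 between the other CW libraries, and it fell by 2.30 (SE 0.29, adjusted p = 0.0207). The weaker isomerase genes Zm00001d052482 and Zm00001d030701, reaching 13.0 FPKM at most, had changes of 0.75 and 0.46 and were not called (adjusted p = 0.358 and 0.550). The epimerase gene Zm00001d027841 stood at 652, 231 and 373 FPKM in LW, against 1644, 1393 and 907 FPKM in CW, without overlap but with a spread that left its change of -1.97 (SE 0.52) uncalled with edgeR (adjusted p = 0.0727). It passed with DESeq2 (adjusted p = 0.0012) and with limma on log2(FPKM + 1) (adjusted p = 0.0388), and after quantile normalization it was -1.22 (adjusted p = 0.111).

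Phosphoribulokinase adds the second phosphate of the CO2 acceptor and, like Rubisco, is specific to the cycle in plants. Its main gene Zm00001d017711, on chromosome 5 at 204910256 to 204912526 on the plus strand, stood at 419, 244 and 317 FPKM in LW, against 1423, 1363 and 1571 FPKM in CW. CW replicate 3 was the highest library, and all LW libraries were below all CW libraries. The gene fell by 2.48 on the log2 scale (SE 0.37, adjusted p = 0.0243), a 5.58-fold fall. The second phosphoribulokinase gene, Zm00001d002454, averaged 5.96 FPKM in LW and 4.16 FPKM in CW and was not called (adjusted p = 0.887).

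Summed over the genes of each step, 12 of 16 steps had a lower FPKM in every LW library than in any CW library. No share over all genes is given for sums on this scale, so the count has no background beside it. For single genes in TMM-scaled CPM, 14.9% of all tested genes lay so, which is another scale and not a sum. The 4 steps with overlap were Rubisco assembly, Rubisco methyltransferases, triosephosphate isomerase and transketolase. The differences that follow are between group means of log2 summed FPKM, not log2 ratios of the printed means. Phosphoribulokinase came next after the small subunits, at 333 ± 84.6 FPKM in LW and 1457 ± 107.5 FPKM in CW, with a difference of -2.16. Activase differed by -1.91, the translocators by -1.76, aldolase and ribose-5-phosphate isomerase by -1.72 each, the epimerase by -1.56 and sedoheptulose-bisphosphatase by -1.55. Fructose-bisphosphatase, GAPDH, phosphoglycerate kinase and CP12 differed least of the 12, by -1.27, -1.26, -1.18 and -1.04. Each of the 12 had an exact two-sided permutation p of 0.1, the smallest possible, so these sums describe the libraries and give no call.

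**Figure D4:**
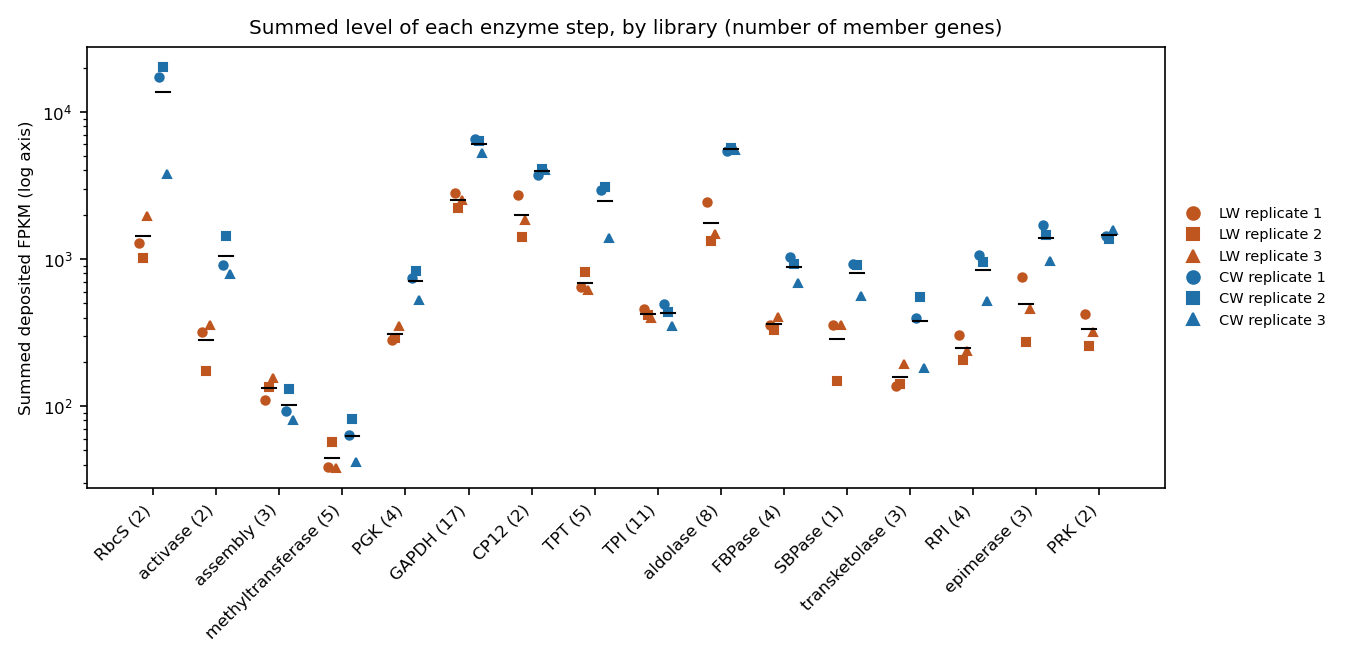
Summed deposited FPKM of each enzyme step on a log axis in every LW (orange) and CW (blue) library, with bars at the group means and the number of member genes in brackets. The small subunits lie farthest apart (1423 in LW, 13700 in CW) and triosephosphate isomerase lies level (423 in LW, 427 in CW).

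CW replicate 3 split the 14 members that fell into 2 sets, a division made after the values were seen. For 10 of them its FPKM was below 75% of the mean of the other 2 CW libraries, the lowest ratio being 0.119 for small subunit2. For the other 4, phosphoribulokinase Zm00001d017711, fructose-bisphosphatase Zm00001d028562, isomerase Zm00001d013135 and GAPDH Zm00001d022107, it was at least 90% of that mean, up to 1.13. The ratio of summed small subunits to phosphoribulokinase Zm00001d017711 was 3.08, 4.16 and 6.20 in LW replicates 1 to 3. In CW replicates 1 to 3 it was 12.1, 14.8 and 2.39. CW replicate 3 had the lowest ratio of all 6 libraries. The ratio of small subunits to activases was 4.06, 5.84 and 5.56 in LW, against 18.8, 14.2 and 4.78 in CW, with CW replicate 3 inside the LW range.

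**Figure D5:**
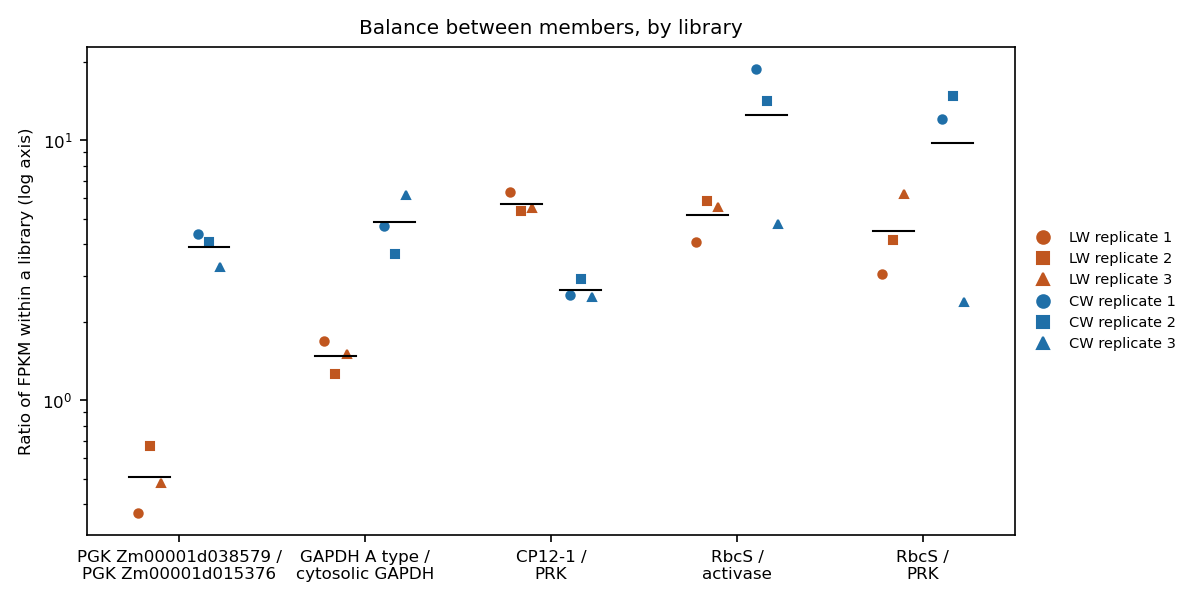
Ratios of FPKM within each library on a log axis, LW in orange and CW in blue, with bars at the group means. The small subunits, the activases and the GAPDH types are sums over genes. The kinases, CP12-1 and phosphoribulokinase (Zm00001d017711) are single genes. The kinase pair, the GAPDH types and CP12-1 over phosphoribulokinase separate all LW from all CW libraries, while the 2 ratios of the small subunits do not, with CW replicate 3 at 4.78 and 2.39.

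Of the 5 members that matched by a shared word only, 4 were tested and 0 called with edgeR, while DESeq2 called 1 lower and 1 higher. The aldolase lysine methyltransferase Zm00001d020437 averaged 6.96 ± 3.11 FPKM in LW and 15.1 ± 5.12 FPKM in CW (log2 fold change -1.50, adjusted p = 0.0846). Zm00001d017791 of the phosphoribulokinase and uridine kinase family averaged 9.50 ± 1.08 FPKM in LW and 3.14 ± 1.29 FPKM in CW (log2 fold change 1.25, adjusted p = 0.0813).

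By the compartment that the table's descriptions or GO terms name, 9 of 22 tested chloroplast members fell and 0 rose with edgeR, and DESeq2 called 14 lower and 0 higher, with a median log2 fold change of -1.65. Of 27 tested members placed in the cytosol alone, 2 fell and 1 rose with edgeR, and DESeq2 called 6 lower and 4 higher, with a median of -0.21. Another 3 tested members have GO terms for both compartments and stand in neither count. Of them, 1, fructose-bisphosphatase Zm00001d028562, fell with edgeR, and DESeq2 called 2 lower. For 13 more tested members no compartment is given, and their median was -0.47. Of these, 2 fell with edgeR, GAPDH Zm00001d022107 and isomerase Zm00001d013135, and 0 rose, while DESeq2 called 4 lower and 1 higher. Over all tested genes, 2.40% fell and 2.84% rose with edgeR. Both members placed in the cytosol alone that fell, phosphoglycerate kinase Zm00001d038579 and fructose-bisphosphatase Zm00001d046942, are placed there by GO terms only and not by their descriptions, as is the abundant aldolase Zm00001d023559. The same holds for Zm00001d034919, the plastid chaperonin subunit described above, which is among the 4 that DESeq2 called higher. The terms were not checked against protein sequence, so the counts by compartment follow the table's placement only.

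Markers of the 2 photosynthetic cell types were compared because Rubisco belongs to the bundle sheath. Both genes listed for the bundle sheath that could be matched had lower FPKM in every LW library than in any CW library. Phosphoenolpyruvate carboxykinase1 had 1212, 840 and 721 FPKM in LW, against 1331, 1942 and 1342 FPKM in CW, and bundle sheath defective2, which encodes a chaperone of Rubisco, had 51.2, 68.9 and 67.7 FPKM in LW, against 152, 131 and 69.7 FPKM in CW. Neither was called with edgeR (adjusted p = 0.161 and 0.0714), and both were with DESeq2. Other genes named phosphoenolpyruvate carboxykinase were not used as markers and did not fall. Homolog2 (Zm00001d047893) had a log2 fold change of -0.03 and Zm00001d008318 of 1.54, neither called with edgeR (adjusted p = 0.969 and 0.186). Bundle sheath defective2 was listed by its name and is counted again in the Rubisco folding list below, so it is not a marker apart from the Rubisco genes. For this gene, LW replicate 2 and CW replicate 3 were nearly level. The sum of the 2 marker genes ran from 789 to 1263 FPKM in LW and from 1411 to 2073 FPKM in CW. The NADP-malic enzyme of the bundle sheath was not matched by the name listed for it, and the part of bundle sheath cells in the falls was not tested. The 3 mesophyll markers were not called, and their sum overlapped, from 644 to 2395 FPKM in LW and from 968 to 1564 FPKM in CW. Senescence genes summed to 890 to 1095 FPKM in LW and to 993 to 1179 FPKM in CW, with 2 of 21 tested genes lower and 0 higher with edgeR and 6 lower and 0 higher with DESeq2, and root preferential1, a root marker, was at or under 0.41 FPKM.

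Other genes outside the 83, matched by words for enzymes and chaperones of carbon fixation, were counted in the same fit. The C4 shuttle list holds every isoform whose name matched, among them mitochondrial gamma carbonic anhydrases and genes of low FPKM. Its counts therefore do not describe the C4 cycle alone. Of 38 tested genes on this list, 1 fell and 0 rose with edgeR, and DESeq2 called 4 in each direction. At an unadjusted p under 0.05, 6 were lower and 9 higher, and the median log2 fold change was 0.18. The 1 that fell with edgeR was pyruvate, orthophosphate dikinase2 (Zm00001d010321), which had 8.37, 9.76 and 5.17 FPKM in LW, against 50.4, 45.8 and 42.8 FPKM in CW. Its log2 fold change was -2.93 (SE 0.31, adjusted p = 0.0192). Of 16 tested genes of the chaperonin and Rubisco folding list, 1 fell and 2 rose with edgeR, DESeq2 called 3 lower and 2 higher, and 5 in each direction had an unadjusted p under 0.05, with a median of 0.00. The 1 that fell encodes an RbcX-like chaperone, Zm00001d021841, with 8.39, 12.2 and 8.88 FPKM in LW, against 33.2, 39.9 and 14.5 FPKM in CW (log2 fold change -1.94, adjusted p = 0.0466). A 10 kDa chaperonin gene, Zm00001d022307, rose by 1.78 (adjusted p = 0.0456) and a gene of the cpn60 family, Zm00001d054089, by 1.85 (adjusted p = 0.0428); whether these 2 act in the chloroplast is not given in the table. Over all 24704 tested genes, 2.40% fell and 2.84% rose with edgeR. At an unadjusted p under 0.05, 2816 of them were lower and 3287 higher. The difference in counts between these lists and the 83 members was not tested.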

How the data were processed

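Leaf RNA from 3 LW and 3 CW maize samples was sequenced as paired ends (Illumina NovaSeq 6000), per the labels' protocols. StringTie 1.3.4, HISAT2 2.0, FastQC 0.10.1 and edgeR are listed, with no order or role, by the submitters' processing notes. Neither the genome build nor the use of strand in counting is given in the sources used here. Per the file headers, the table the authors deposited holds FPKM and counts for each gene in each library. Among the deposited counts from 1 to 40, 28.6% to 31.4% are multiples of 4, so they were treated as estimated counts and no counting interval is given. No columns were identical and no per-sample column was left out. The title of CW replicate 2 was followed where its source name gives another number.

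Counts of all 6 libraries were tested with edgeR 4.0.16 in R 4.3.3: TMM factors, filterByExpr defaults, glmQLFit and glmQLFTest with group as the only term, and Benjamini-Hochberg adjustment over all tested genes. SE is the log2 fold change divided by the square root of F. The procedure was also run on simulated data, whose outcome is not reported here and is no support for the calls. Named genes (33 genes) are every called member and every tested member for the Rubisco small subunit, activase, assembly or methyltransferase. For each other enzyme, the gene with the highest mean FPKM per compartment was added. The nuclear copies of the Rubisco large chain were not part of this rule. Alternatives were DESeq2 1.42.0, limma 3.58.1 on log2(FPKM + 1) or log2(FPKM + 0.1), quantile normalization, library totals, no filter, a replicate block, and each library left out. Members and lists were chosen with earlier results of these data known.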

Additional observations from a re-analysis of the deposited data

How the results depend on the processing

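With all 6 libraries edgeR called 14 members lower and 1 higher in LW. DESeq2 called 26 lower and 6 higher; 14 lower and 4 higher were called with library totals, 17 lower and 7 higher with limma on log2(FPKM + 1), 12 lower and 5 higher on log2(FPKM + 0.1), and 10 lower and 3 higher after quantile normalization. Leaving out 1 library gave 0 to 24 lower, 0 to 2 higher, and a median log2 fold change of -0.81 to -0.55. That median, -0.71 with all libraries, was -0.34 with totals, -0.37 on log2(FPKM + 1) and -0.38 on log2(FPKM + 0.1). A fit with the replicate number as a replicate block called 0 lower and 0 higher members, and 1 lower and 2 higher of all genes. At an unadjusted p under 0.05 it had 28 members lower and 6 higher, beside 4790 of all 24704 genes in either direction. Same-numbered libraries did not deviate together (r = -0.0352, -0.00209 and -0.251). With deviations taken from means of 3 libraries per group, this cannot settle whether the numbers pair the libraries. The fold changes of 2 genes changed sign: Zm00001d010172 was at 0.0915 with totals, 0.14 and 0.14 with limma on log2(FPKM + 1) and log2(FPKM + 0.1), 0.0400 after quantile normalization and -0.44 to 0.11 with 1 library left out (0.11 without CW replicate 1), and Zm00001d039865 at 0.0698, 0.0802, 0.0807 and 0.0883 under the same 4 scalings; the cause was not tested. Of 429 single-gene values, 301 kept their direction and their side of the threshold, 95 lost the call, 24 gained it and 9 changed sign. With FPKM divided by relative TMM factors, a choice made after seeing the data, the log2 differences of summed FPKM were 0.0581 for Rubisco assembly, -1.54 for phosphoglycerate kinase, -1.62 for GAPDH (-2.09 for the A type and -0.41 for the cytosolic genes), -1.40 for CP12, -0.36 for triosephosphate isomerase, -2.08 for aldolase, -1.62 for fructose-bisphosphatase and -2.52 for phosphoribulokinase. Over all genes, 581 lower and 2429 higher were called with limma on log2(FPKM + 1), and 592 lower and 701 higher with edgeR. On log2(FPKM + 0.1) these counts were 365 lower and 1711 higher, and after quantile normalization 910 lower and 1080 higher. The loss of calls was not limited to genes near the threshold: without any 1 LW library or CW replicate 2, Zm00001d038579 had an adjusted p of 0.0666 to 0.113, against 0.0207 with all 6, while its log2 fold change stayed between -2.93 and -2.66.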
